A study of Mus musculus with 6 samples.

Results

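Cytoplasmic dynein is the motor that walks along microtubules towards the cell centre, and dynactin is the companion complex that links it to cargo and keeps it moving. The 10 genes described here encode subunits of these complexes: the heavy chain Dync1h1, the intermediate chain Dync1i2, the light intermediate chains Dync1li1 and Dync1li2, the light chains Dynll1, Dynll2 and Dynlrb1, and the dynactin subunits Dctn1, Dctn2 and Dctn3. They were selected by gene symbol from the 55364 genes listed, by a rule that set long against short subunit transcripts, with the difference between the genotypes already known. Every value of that difference for these genes is therefore a description, given without a p-value. Where a subunit is said to meet the thresholds for a call, this is read off a fit of all genes. It is not taken as a test of the subunits.

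RNA came from primary mouse lung fibroblasts (LFs), the cells that lay down matrix in the lung, in 3 libraries labelled WT and 3 libraries labelled TKS5 KO. Per the study's methods, the LFs came from young adult Tks5+/- mice and their wt littermates, of the C57Bl6/J background. Tks5 is the podosome scaffold encoded by Sh3pxd2a. The mutant allele came from a conditional EUCOMM allele, from which a loxP-flanked exon was removed by a Cre recombinase driven in all tissues by the CMV promoter, and the mice were heterozygous for it. All LFs of both groups had been held in serum-free medium with 10 ng/ml TGFβ1 for 24 h, which turns LFs into myofibroblasts, and no untreated library was part of the comparison. The RNA was sequenced by Quant-seq, which starts from the poly(A) tail and therefore counts each transcript at its 3′ end, whatever its length.

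In the dynein complex, a pair of heavy chains carries the motor domains and binds the other subunits through its tail. The intermediate and light intermediate chains attach to that tail and connect the motor to dynactin and to cargo adaptors, and the small light chains sit on the intermediate chains as dimers. In dynactin, a short actin-like filament of Arp1 is joined to a projecting shoulder of p150Glued (Dctn1), p50 dynamitin (Dctn2) and p24 (Dctn3). In fibroblasts the complex positions the nucleus, the Golgi and endosomes, and it returns vesicles from the cell edge.

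The subunit transcripts differ widely in length. In the GENCODE M21 annotation of GRCm38, the longest annotated transcript ran from 788 bases for Dynlrb1 and 973 bases for Dctn3 to 14342 bases for Dync1h1. Between these lay Dynll1 (2242 bases), Dynll2 (2476), Dctn2 (2557), Dync1li1 (2601), Dctn1 (4321), Dync1i2 (4523) and Dync1li2 (4627). The longest transcripts of Dync1i2, Dynll1 and Dctn2 were annotated as retained-intron forms, and their longest mRNAs were 2631, 2030 and 1784 bases. A long transcript did not mean a long 3′ UTR. Dync1h1 had 13932 coding bases and the shortest 3′ UTR of the 10 genes (254 bases), while Dynll1 and Dynll2, with 267 coding bases each, had 3′ UTRs of up to 1586 and 1908 bases.

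Because the reads were primed at poly(A) tails, the ends of the transcripts are the places that were counted. The following 30-base windows, read from the GRCm38 reference, carry the poly(A) signal word in capitals (AATAAA or its variant ATTAAA) for the heavy chain and for the 2 paralogous light chains, and the last window is the end of Dctn3, in which neither word was found.
Dync1h1, chr12:110666901-110666930, forward strand: AATAAAacactaagcatgacgggctcccgc
Dynll1, chr5:115297118-115297147, reverse strand: AATAAAattggtttgatggtgtatggagtt
Dynll2, chr11:87979525-87979554, reverse strand: gacATTAAAggtcgattgatgcacttctga
Dctn3, chr4:41714798-41714827, reverse strand: agagataaagagttcttacatcatttgact

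All of these windows lie in the last exon. The search covered the sense strand of the last 50 bases of the longest mRNA. One of these words was found there in 8 of the 10 subunit genes, Dynlrb1 and Dctn3 being those without, and in 79.7% of 9455 tested genes (AATAAA in 64.7%, ATTAAA in 18.9%). A missing word says only that those letters are not in this window. Copies elsewhere in the genome matter for counting by ends. Over the last 300 bases of their mRNAs, Dynll1 shared words of 31 identical bases with 7 other genes and Dctn1 with 1, the processed pseudogene Gm11702, and the other 8 subunits shared none. The last 300 bases of Dctn3 overlap Il11ra1 on the opposite strand, and whether the counting kept to 1 strand is not given in the sources used here.

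The 6 libraries held between 1344507 and 2369882 counts, and levels are given as CPM, the counts per 1000000 of the scaled library total. Of 10346 genes tested with edgeR's quasi-likelihood test, 4642 (44.9%) were called, where a call needed a change of 1.2-fold or more and a Benjamini-Hochberg adjusted p below 0.05. The 2 directions were close to even, with 22.8% of the tested genes called higher and 22.1% called lower in the libraries labelled TKS5 KO. The study describes its samples as biologically independent, but the labels do not tie the replicates to separate mice or cultures, so the p-values measure the spread between these libraries. Sh3pxd2a had 205, 190 and 284 counts in the WT libraries and 238, 258 and 260 in the libraries labelled TKS5 KO. It was not lower in the latter (log2 fold change 0.29, SE 0.20, edgeR adjusted p = 0.249, and p = 0.2 in an exact two-sided permutation test, where the smallest p is 0.1). The counted end of Sh3pxd2a lies downstream of the targeted exon, and whether transcripts of the mutant allele keep this end was not tested. This count does not bear out the labels. By Q-RT-PCR, the study reports lower Tks5 mRNA in its Tks5+/- LFs. All 9 fibroblast markers were detected, at a summed 3876 to 5254 CPM in WT and 5598 to 8715 CPM in TKS5 KO. The markers did not all go the way of this sum. Of the 9, 4 were called higher in TKS5 KO (Col3a1, Pdgfra, Thy1 and Vim) and 1 lower. Col3a1 and Pdgfra had overlapping groups (edgeR adjusted p = 0.0451 and 0.0334). They kept their calls in only 2 and 3 of the fits with a library left out, and lost them with scaling by library totals. Pdgfrb fell from 182 ± 45.3 to 91.2 ± 26.8 CPM (SD, n = 3, edgeR adjusted p = 0.00203). The other 4 were not called, at log2 fold changes of 0.45 (Col1a1), 0.39 (Col1a2), -0.31 (Dcn) and -0.85 (Lum).

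Markers of other cells differed between the groups. The 10 macrophage markers summed to 348 to 2078 CPM in WT, where replicate 3 was the high one, and to 121 to 135 CPM in TKS5 KO, with Ptprc and Adgre1 at 0 in all 3 libraries. The 6 endothelial markers summed to 106 to 127 against 45.6 to 59.9 CPM, with Pecam1 and Tek at 0 in TKS5 KO. The sums of the 9 epithelial markers overlapped (34.8 to 66.7 against 30.7 to 63.2 CPM), with Epcam, Cdh1 and Krt8 at 0 in TKS5 KO. Ager made up most of the TKS5 KO sums and was called higher, at 12.9, 9.63 and 13.0 CPM in WT and 37.3, 60.3 and 29.2 CPM in TKS5 KO. The other 2 epithelial markers tested were called lower, Krt18 (log2 fold change -5.03, edgeR adjusted p = 4.1e-05) and Cldn4 (-4.51, edgeR adjusted p = 2.13e-05). Some zeros stood against few WT counts: 4, 1 and 15 for Ptprc, and 5, 1 and 6 for Tek. Epcam had 2, 1 and 3 and Krt8 2, 7 and 2, and none of these genes passed the filter on low counts. The 4 mesothelial markers summed to 18.2 to 23.8 against 2.56 to 8.23 CPM. The 10 cell cycle genes summed to 380 to 496 CPM in WT and to 733 to 1086 CPM in TKS5 KO. Of the 8 tested, 4 were called higher (Cdk1, Ccnb1, Birc5 and Plk1) and 1 lower, Cdc20 (log2 fold change -0.60, edgeR adjusted p = 0.0176). The other 3 were not called, Mki67 (-0.49), Top2a (-0.22) and Ccna2 (-0.0075). The part of these cells and of cell division in the dynein and dynactin values was not tested. In bulk RNA, fewer cells of a type and less RNA per cell cannot be told apart.

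The heavy chain changed most. Dync1h1 (chr12:110601452-110666945), whose motor domains hydrolyse ATP and whose tail scaffolds the complex, stood at 599, 663 and 574 CPM in the WT libraries (replicates 1, 2 and 3, the order used throughout) and at 70.2, 36.9 and 69.1 CPM in those labelled TKS5 KO. The groups lay far apart, and no library of either came near the other. The means were 612 ± 45.7 and 58.7 ± 18.9 CPM (SD, n = 3), a log2 fold change of -3.38 (SE 0.25), or 10.4-fold lower in the libraries labelled TKS5 KO. Only 72 of the 10346 tested genes had a lower log2 fold change, and 5 of the 548 tested genes with a transcript of over 8000 bases. Leaving out any 1 library kept it between -3.48 and -3.10. Without WT replicate 3, the library with the high macrophage markers, it was -3.42. The other WT libraries also had a higher sum of these markers than any TKS5 KO library (at least 348 against at most 135 CPM).

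**Figure D1:**
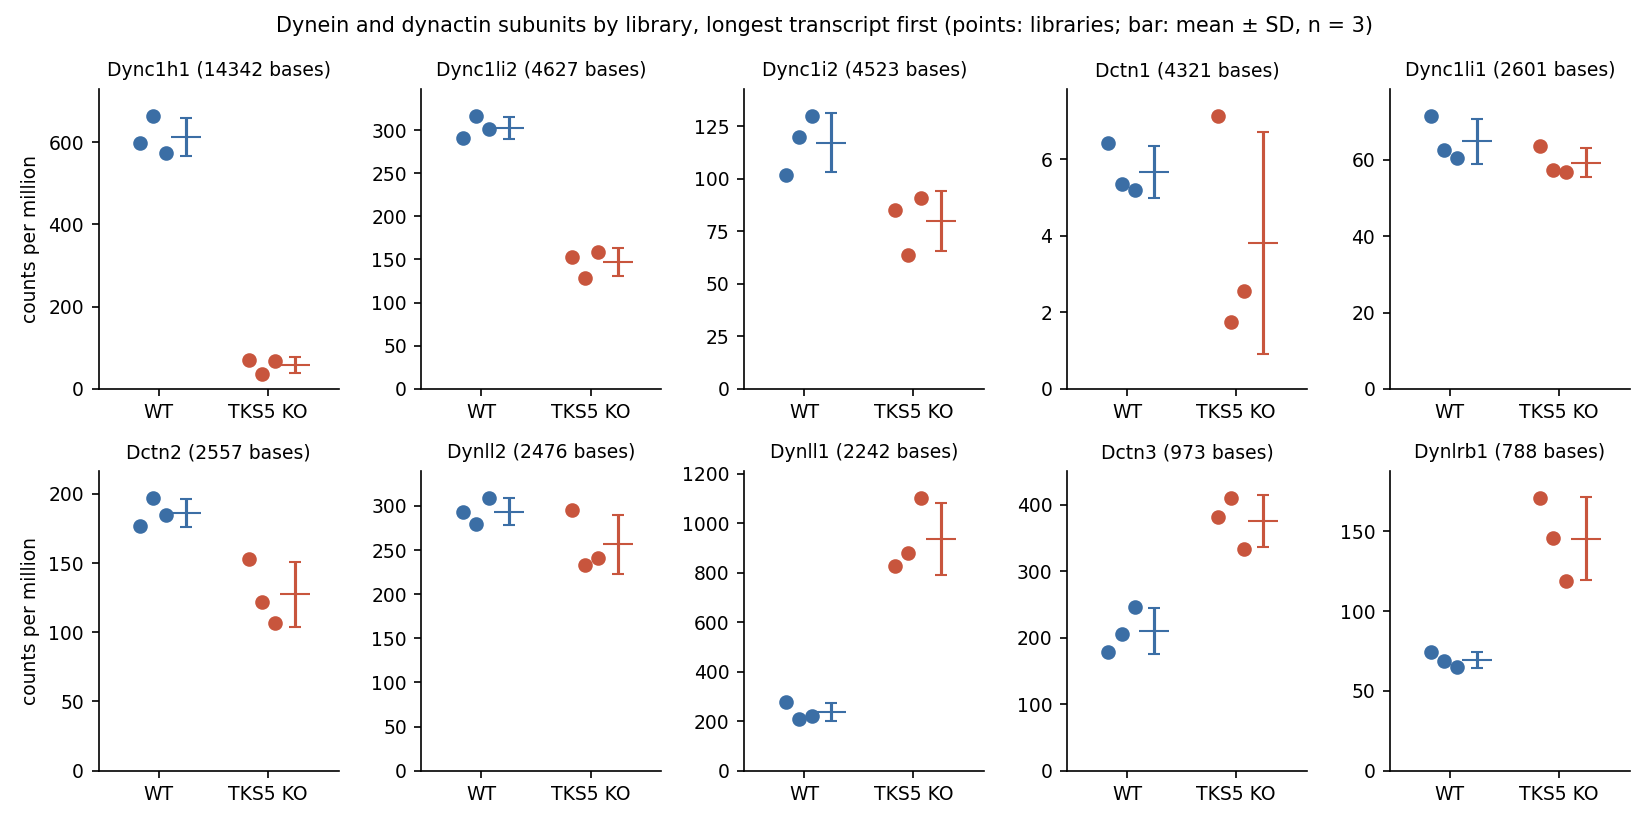
CPM (vertical axis, from 0 in each panel, with a scale of its own) of the 10 subunits in the 3 WT libraries (blue) and the 3 libraries labelled TKS5 KO (red), ordered from the longest to the shortest transcript, with the group mean and SD beside the points. Dync1h1 sits at 574 to 663 CPM in WT and at 36.9 to 70.2 CPM in TKS5 KO, and Dynll1 at 210.3 to 279 against 827 to 1102 CPM.

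The light intermediate chains attach to the heavy chain, and 1 of the 2 was clearly lower. Dync1li2, a light intermediate chain that binds cargo adaptors, stood at 290.3, 316 and 301 CPM in WT and at 153, 129 and 159 CPM in TKS5 KO, without overlap. Its log2 fold change was -1.04 (SE 0.20), and the TKS5 KO mean was 2.06-fold lower. Its paralog Dync1li1, which also binds adaptors, showed overlapping groups, at 71.4, 62.6 and 60.4 CPM in WT and 63.7, 57.3 and 56.8 CPM in TKS5 KO (log2 fold change -0.13, SE 0.21).

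The intermediate chain lay between them. Dync1i2, the chain on which the light chains sit and to which p150Glued binds, stood at 102, 119.9 and 129.8 CPM in WT and at 85.1, 63.8 and 91.1 CPM in TKS5 KO. The groups did not overlap but came close to each other, and the log2 fold change was -0.55 (SE 0.21). This gene met the thresholds for a call, but not with DESeq2 (-0.53) or with no filter on low counts (-0.57). It also lost the call without WT replicate 2 (-0.54), WT replicate 3 (-0.48), TKS5 KO replicate 1 (-0.55) or TKS5 KO replicate 2 (-0.39).

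The light chains went apart. Dynll1 (chr5:115297110-115300999), the LC8 light chain that binds the intermediate chain and many other proteins as a dimerising hub, stood at 279, 210.3 and 221 CPM in WT and at 827, 881 and 1102 CPM in TKS5 KO. Every TKS5 KO library was well above every WT library, with a log2 fold change of 1.98 (SE 0.22), or 3.96-fold higher. Its close relative Dynll2, a second LC8 chain, was nearly level, at 293, 279 and 309 CPM in WT and 295, 233 and 241 CPM in TKS5 KO, with overlapping groups and a log2 fold change of -0.19 (SE 0.20). Among the tested genes, 272 had a higher log2 fold change than Dynll1, and 72 of the 3891 with a transcript of over 2000 and up to 4000 bases. Leaving out any 1 library kept Dynll1 between 1.89 and 2.12.

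The other light chain described, Dynlrb1, is a roadblock-type chain that also dimerises on the intermediate chain. It stood at 74.7, 69.0 and 64.9 CPM in WT and at 171, 146 and 119 CPM in TKS5 KO. All 3 TKS5 KO libraries were above the WT libraries, with a log2 fold change of 1.06 (SE 0.21), or 2.09-fold higher.

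Pseudogene copies carried a small part of the Dynll1 signal. The 7 genes that share words with its end held 38, 45 and 65 counts in WT and 104, 87 and 169 in TKS5 KO, beside 434, 393 and 597 and 1507, 1505 and 2154 counts listed for Dynll1 itself. Most of these counts were listed under Gm6788, a processed pseudogene on chromosome 19. With the copies added, the counts were 472, 438 and 662 in WT and 1611, 1592 and 2323 in TKS5 KO, so the direction did not rest on how reads were divided among them.

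Shares within paralog pairs do not depend on how the libraries were scaled. They are shares of counts at the ends and not per length, so that only their difference between groups is described. Dynll1 held 48.8%, 43.0% and 41.7% of the counts of the LC8 pair in WT, with 95% Wilson intervals of 45.5 to 52.1, 39.8 to 46.2 and 39.2 to 44.3. In the TKS5 KO replicates it held 73.7%, 79.0% and 82.1% (71.7 to 75.6, 77.2 to 80.8 and 80.5 to 83.5). These intervals cover counting error alone. The mean share was 44.5 ± 3.77% in WT and 78.3 ± 4.24% in TKS5 KO (SD, n = 3), so the pair turned from nearly even to mostly Dynll1.

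The light intermediate pair moved less. Dync1li2 held 80.2%, 83.5% and 83.3% of that pair's counts in WT and 70.6%, 69.2% and 73.6% in TKS5 KO, with means of 82.3 ± 1.80% and 71.1 ± 2.28% (SD, n = 3). The heavy chain also fell behind its own intermediate chain. For each Dync1i2 count there were 5.86, 5.53 and 4.43 Dync1h1 counts in the WT libraries and 0.826, 0.578 and 0.758 in the TKS5 KO libraries.

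The dynactin subunits divided as well. Dctn3 (p24), a small subunit of the shoulder, stood at 178, 206 and 246 CPM in WT and at 382, 410.2 and 333 CPM in TKS5 KO, without overlap (log2 fold change 0.83, SE 0.20). Dctn2 (p50 dynamitin), which holds the shoulder to the Arp1 filament, was lower, at 177, 197 and 185 CPM in WT and 153, 122 and 107 CPM in TKS5 KO. Its groups did not overlap either, with a log2 fold change of -0.55 (SE 0.20) that met the thresholds. It no longer met them without WT replicate 2 (-0.51), WT replicate 3 (-0.56), TKS5 KO replicate 2 (-0.49) or TKS5 KO replicate 3 (-0.41). For Dctn3, the gene on the opposite strand at its end, Il11ra1, held 544, 728 and 974 counts in WT and 462, 519 and 901 in TKS5 KO. To which of these genes reads in the overlap were assigned was not tested.

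Dctn1 could hardly be measured. This largest subunit, which grips microtubules and the intermediate chain, was listed with 10, 10 and 14 counts in WT and 13, 3 and 5 in TKS5 KO, and the groups overlapped (log2 fold change -0.54, SE 0.52). Leaving out TKS5 KO replicate 1 gave -1.29 and leaving out TKS5 KO replicate 2 gave -0.19. The pseudogene Gm11702 on chromosome 11, which is 69 bases long, shares 31-base words with the end of Dctn1. It was listed with 59, 103 and 107 counts in WT and 65, 16 and 51 in TKS5 KO, more than Dctn1 in every library. It lies inside the span of Grb2, and which of these genes its reads came from cannot be told apart from these counts. With Gm11702 added, the unscaled counts were 69, 113 and 121 in WT and 78, 19 and 56 in TKS5 KO. No difference was called in the counts listed under Dctn1, and whether its transcripts differ cannot be told from them.

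Of the 10 subunits, 7 met the thresholds for a call, beside 44.9% of all tested genes. They were Dync1h1, Dync1li2, Dync1i2 and Dctn2 on the lower side and Dynll1, Dynlrb1 and Dctn3 on the higher side. The same 7 had groups without overlap, with 3 above (26.1% of all tested genes) and 4 below (27.6%). All 10 passed the filter on low counts. Since the subunits were selected on this difference, nothing is read from these shares. The median log2 fold change of the 10 was -0.37, beside -0.046 over all tested genes, and it was -0.15 without TKS5 KO replicate 2 and -0.20 without TKS5 KO replicate 3. The summed CPM of the 10 were nearly the same in both groups, 2071 to 2129 in WT and 2081 to 2280.3 in TKS5 KO, so that lower heavy chain counts stood against higher Dynll1 counts. This likeness depends on the scaling of the library totals, whose factors were 1.148 to 1.17 in WT and 0.8166 to 0.9324 in TKS5 KO.

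The selection asked for long against short subunit transcripts. Ranked by their longest transcript, the 5 long ones were Dync1h1, Dync1li2, Dync1i2, Dctn1 and Dync1li1, and the 5 short ones Dctn2, Dynll2, Dynll1, Dctn3 and Dynlrb1. All 5 long subunits had a log2 fold change below 0, and 3 of the 5 short ones had one above 0. The mean log2 CPM of the long set minus that of the short set was -0.87, -0.81 and -0.92 in WT and -2.46, -2.97 and -2.48 in TKS5 KO. The 2 groups lay clearly apart, at means of -0.86 ± 0.055 and -2.64 ± 0.29 (SD, n = 3), a difference of -1.77.

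Dync1h1 made up a good part of this contrast. Without it, the long set minus the short set was between -1.56 and -1.49 in WT and between -3.00 and -2.55 in TKS5 KO, a difference of -1.21. Over all tested genes split at the same lengths, 6435 of at least 2601 bases and 3825 of at most 2557 bases, the contrast ran from -0.30 to -0.21 in WT and from -0.99 to -0.78 in TKS5 KO, a difference of -0.63. The same direction was thus seen in all tested genes, at a smaller size than in the subunits, and the difference between these sizes was not tested.

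**Figure D2:**
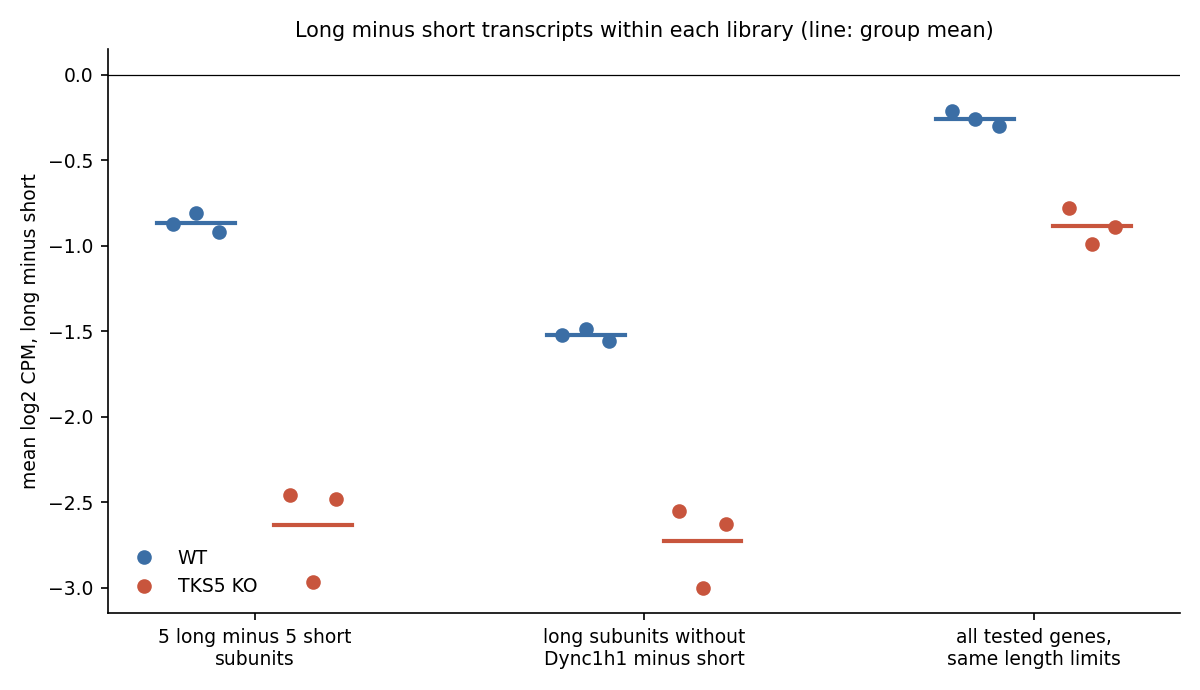
Mean log2 CPM of long minus short transcripts (vertical axis) in each WT library (blue) and each library labelled TKS5 KO (red), with a line at the group mean, for the 5 long and 5 short subunits, for the same without Dync1h1, and for all tested genes split at the same lengths. The TKS5 KO libraries are below the WT libraries in all 3 columns, with differences of -1.77, -1.21 and -0.63 between the group means.

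Another measure of length turned the contrast around. Ranked by their longest 3′ UTR, the long set was Dync1li2, Dynll2, Dynll1, Dync1li1 and Dync1i2, the short set held Dync1h1 with its 254 bases, and the mean log2 fold change of the long set was higher than that of the short set, by 0.53 in place of -1.76. Ranking by coding length or by the longest mRNA gave -1.76, the same sets as before. Dync1h1, which has the longest coding sequence and the shortest 3′ UTR, changes sides between these rankings.

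Length and change were related across the whole table. The median log2 fold change of all tested genes was 0.85 for transcripts of up to 1000 bases, 0.37 for those up to 2000, -0.032 up to 4000, -0.38 up to 8000 and -0.71 above that. Dynlrb1 and Dctn3, both under 1000 bases, lay between the quartiles of their class (0.15 to 1.43), as did Dync1li1, Dynll2 and Dctn2 (-0.60 to 0.59) and Dync1i2 and Dctn1 (-0.91 to 0.16). Dync1li2 was just below its class, Dynll1 far above (1.98 against an upper quartile of 0.59) and Dync1h1 far below (-3.38 against a lower quartile of -1.23). Across the 10 subunits, Pearson's r between log10 length and log2 fold change was -0.85 (Spearman's rho -0.90), and across the 9 without Dync1h1 -0.69 (-0.87). It was -0.36 (-0.40) across the 10339 tested genes with a length. These are descriptions across genes, which share libraries and are not independent replicates.

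**Figure D3:**
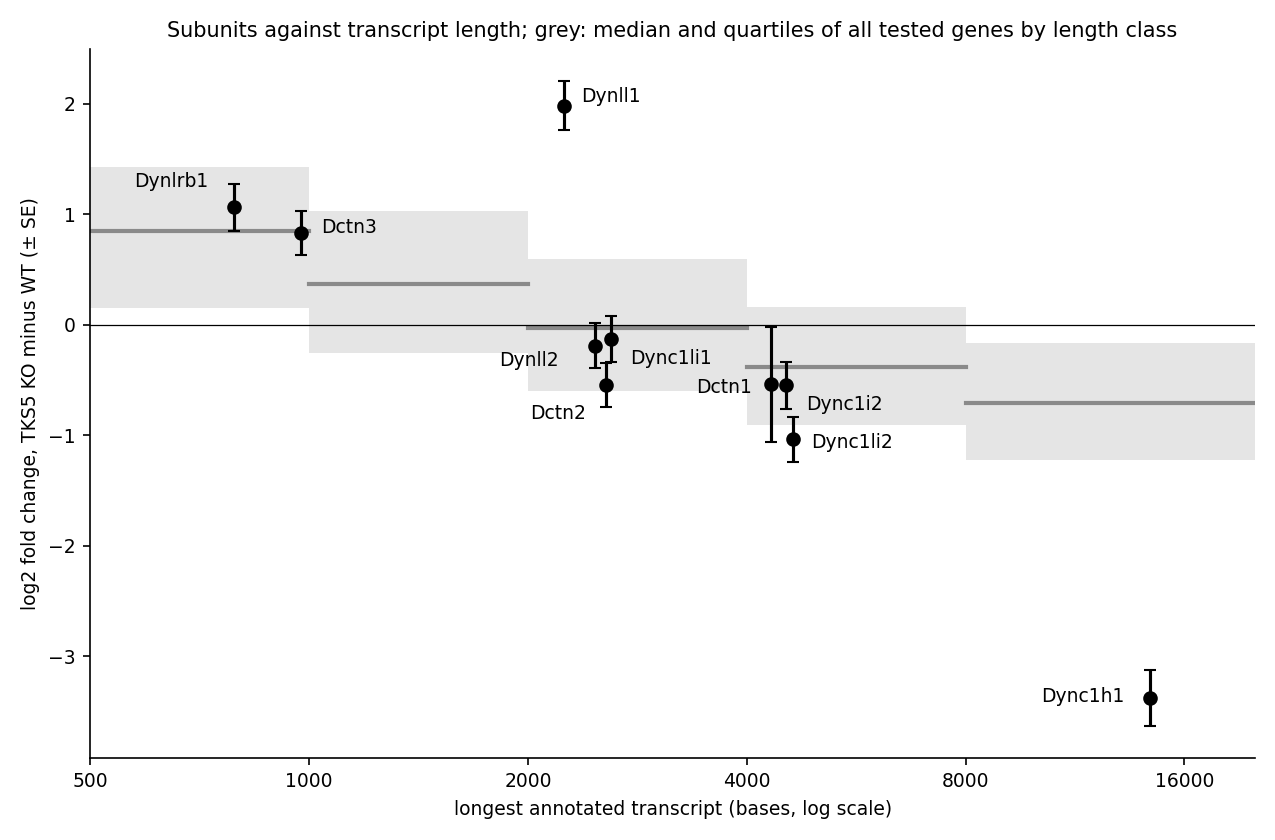
Log2 fold change of each subunit (vertical axis, TKS5 KO minus WT, with its SE) against the length of its longest transcript (horizontal axis, bases, log scale), with the median (grey line) and quartiles (grey band) of all tested genes in 5 length classes. Dync1h1 at -3.38 and Dynll1 at 1.98 lie outside the band of their class, Dync1li2 at -1.04 just under it, and the other 7 subunits within it.

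Removing each library's trend with transcript length, a loess correction, showed how much of each value went with length. Dync1h1 moved from -3.38 to -2.52, Dync1li2 from -1.04 to -0.78 and Dynll1 from 1.98 to 1.84, and all 3 still met the thresholds. The smallest transcripts moved most in proportion, with Dynlrb1 going from 1.06 to 0.42 and Dctn3 from 0.83 to 0.25. These 2 and Dync1i2 (-0.55 to -0.30) no longer met the thresholds, while Dctn2 (-0.62) did. With length and GC content both corrected, Dync1h1 was at -2.39, Dynll1 at 1.68, Dync1li2 at -0.96 and Dctn2 at -0.77, and Dynlrb1 (0.74) met the thresholds again. What sets the trend with length in these libraries was not tested.

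**Figure D4:**
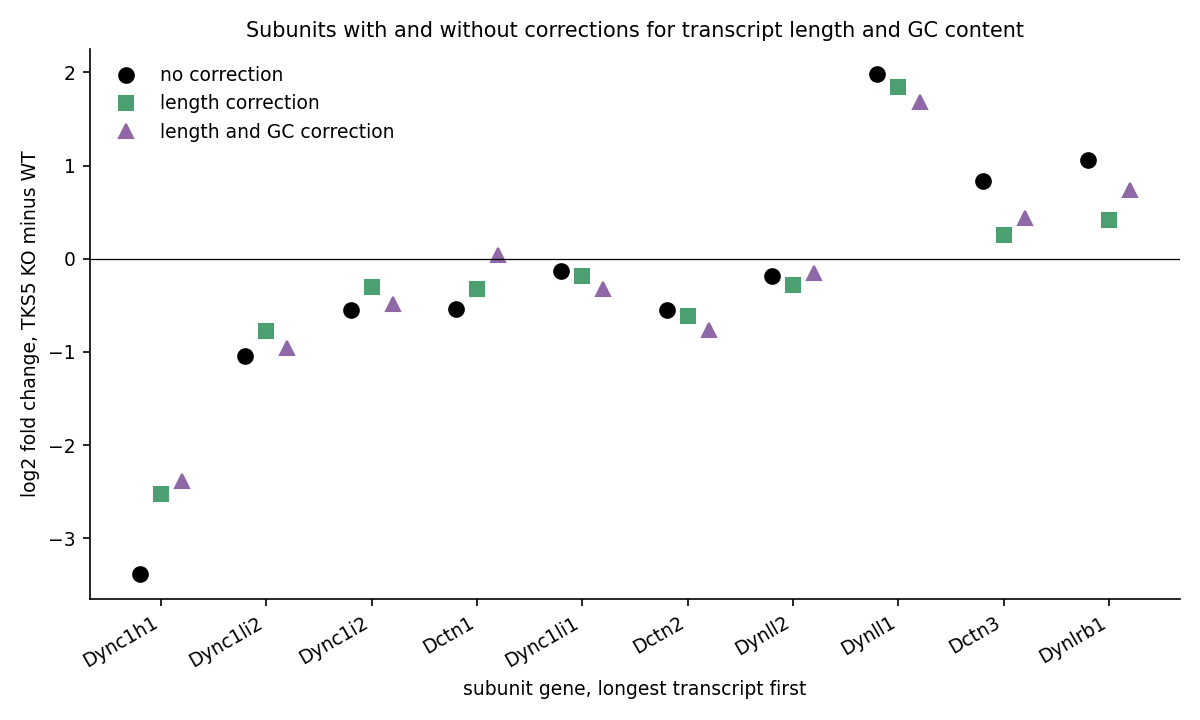
Log2 fold change (vertical axis, TKS5 KO minus WT) of the 10 subunits, longest transcript first, without correction (black circles), with the length correction (green squares) and with the length and GC correction (purple triangles). Dync1h1 stays the lowest (-3.38, -2.52 and -2.39) and Dynll1 the highest (1.98, 1.84 and 1.68), while Dctn3 comes down from 0.83 to 0.25 and 0.44.

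The remaining subunits of the 2 complexes were read from the same fit. Of 16 listed genes 14 were tested, of which 7 rose and 1 fell in the libraries labelled TKS5 KO, beside 22.8% and 22.1% of all tested genes, and the median log2 fold change was 0.60 (0.49 with the length correction). Of the 7, 3 are near-identical copies of Dynlt1, and with scaling by library totals 5 rose and 3 fell. Actr10, the Arp11 subunit at the pointed end of the dynactin filament, rose from 179.5 ± 40.6 to 487 ± 124 CPM (SD, n = 3, log2 fold change 1.44, SE 0.23, edgeR adjusted p = 2.89e-05). Dctn6 (p27), its neighbour in the pointed-end complex, rose from 45.8 ± 12.1 to 119.9 ± 9.56 CPM (1.40, SE 0.23, edgeR adjusted p = 3.54e-05). Both were called whichever library was left out and with the length correction (1.63 and 0.92). Actr10 has a transcript of 4022 bases and so rose against the trend with length. The 1 gene that fell was Actr1a, the Arp1 protein that builds the filament itself, from 87.7 ± 17.7 to 49.0 ± 13.9 CPM (-0.84, SE 0.24, edgeR adjusted p = 0.00682). Its call was lost without TKS5 KO replicate 2 (-0.60, adjusted p = 0.0599).

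Some genes of capping protein and of the Tctex light chains also rose, and others, such as Capza1 (0.21), Dynlt1a (0.42) and Dynlt3 (-0.34), were not called. Capzb, the beta subunit of the capping protein at the barbed end, went from 617 ± 95.6 to 959 ± 139.8 CPM (0.64, SE 0.21, edgeR adjusted p = 0.0159). That call was lost with the length correction (0.34, adjusted p = 0.191), without WT replicate 2 (0.56, adjusted p = 0.105) and without WT replicate 3 (0.58, adjusted p = 0.0585). Dynlt1c, a Tctex-type light chain, rose from 3.05 ± 2.00 to 16.7 ± 7.01 CPM (2.45, SE 0.48, edgeR adjusted p = 0.000256). It belongs to a family of near-identical copies (Dynlt1a, Dynlt1b, Dynlt1c and Dynlt1f) among which reads can be split, so the value of each copy is uncertain.

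Among regulators and adaptors of dynein, calls went in both directions. Of 19 listed genes 13 were tested, 1 rose, 3 fell and 9 did not pass the test (30.8% called, beside 44.9% of all tested genes), with a median log2 fold change of -0.089. Hook3, an adaptor that activates dynein on endosomes and at the Golgi, fell from 41.9 ± 4.77 to 12.6 ± 4.95 CPM (-1.72, SE 0.29, edgeR adjusted p = 6.13e-05). Bicd2, the adaptor for Golgi-derived vesicles and for the nuclear envelope, fell from 51.9 ± 6.19 to 18.1 ± 1.72 CPM (-1.53, SE 0.25, edgeR adjusted p = 3.19e-05). Both were called whichever library was left out and with the length correction (-0.93 and -1.08). Bicdl2, another Bicaudal D family adaptor, rose from 39.1 ± 4.77 to 81.8 ± 14.9 CPM (1.06, SE 0.22, edgeR adjusted p = 0.000564).

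Trak1, a mitochondrial adaptor for both kinesin-1 and dynein, fell from 93.2 ± 16.6 to 57.1 ± 16.9 CPM (-0.71, SE 0.24, edgeR adjusted p = 0.0183). With the length correction it was at -0.36 (adjusted p = 0.22), without WT replicate 3 at -0.56 (adjusted p = 0.0877) and without TKS5 KO replicate 2 at -0.46 (adjusted p = 0.133), so its call rested on these choices. Mapk8ip3, a JNK-interacting scaffold, was level without correction (80.5 ± 11.9 and 80.3 ± 7.26 CPM) and was called higher with the length correction (0.53, edgeR adjusted p = 0.0493). Lis1 (Pafah1b1), which opens the motor, had a log2 fold change of -0.20 (SE 0.21, edgeR adjusted p = 0.458).

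Dynein-2, the separate motor that works inside cilia, had 4 of its 5 listed subunits tested, and 2 rose and 1 fell, beside 22.8% and 22.1% of all tested genes. Tctex1d2 rose from 26.3 ± 2.92 to 95.4 ± 21.8 CPM (1.86, SE 0.24, edgeR adjusted p = 1.88e-06). Wdr34, an intermediate chain, fell from 77.4 ± 10.7 to 46.1 ± 7.77 CPM (-0.75, SE 0.22, edgeR adjusted p = 0.00858), and without TKS5 KO replicate 3 its call was lost (-0.60, adjusted p = 0.0569). Dync2li1, at under 10 CPM in every library, rose by 1.51 (SE 0.51, edgeR adjusted p = 0.0185). It was at 1.09 with the length correction (adjusted p = 0.0941), and leaving out WT replicate 2 (1.36), WT replicate 3 (1.12) or TKS5 KO replicate 3 (1.45) ended its call, at adjusted p of 0.0842, 0.123 and 0.0617.

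Kinesins, the motors of mostly opposite direction, gave the nearest comparison. Of 18 listed genes 15 were tested, of which 5 fell and 0 rose by edgeR (0 also by DESeq2, by limma-voom and at an unadjusted p under 0.05), with a median log2 fold change of -0.59 and a median transcript of 6032 bases. The share that fell was 33.3%, beside 22.1% of all tested genes and 30.6% of those with transcripts of over 4000 and up to 8000 bases, so it was close to the share at its own length. Kif5b, the ubiquitous heavy chain of kinesin-1, stood at 120.4, 126 and 94.5 CPM in WT and at 35.1, 34.5 and 38.4 CPM in TKS5 KO. The groups lay far apart (log2 fold change -1.65, SE 0.22, edgeR adjusted p = 3.16e-06), and with the length correction the value was -1.23. Set beside it, Dync1h1 had a log2 fold change of -3.38, and the 2 values were not tested against each other. Klc4, a kinesin light chain, was also called lower (-0.81, SE 0.32, edgeR adjusted p = 0.0422). It kept its call with the length correction (-0.93, adjusted p = 0.0224), but in only 1 of the fits with a library left out. Several other kinesin heavy chains were not called, among them Kif5c (0.64), Kif3b (0.10) and Kif3a (0.011).

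Of the kinesin-3 motors, which carry vesicles, Kif1a, Kif1b and Kif1c fell, while Kif13a (-0.33) and Kif13b (-0.59) were not called and Kif16b was not tested. Kif1a fell from 97.2 ± 20.1 to 35.0 ± 5.55 CPM (-1.47, SE 0.23, edgeR adjusted p = 2.44e-05) and was at -0.88 with the length correction (adjusted p = 0.00349). Kif1b fell from 48.4 ± 14.4 to 20.9 ± 5.40 CPM (-1.19, SE 0.28, edgeR adjusted p = 0.00142), and Kif1c from 389.7 ± 77.7 to 257 ± 53.5 CPM (-0.60, SE 0.22, edgeR adjusted p = 0.0289). Both calls were lost with the length correction, at -0.50 (adjusted p = 0.136) and -0.11 (adjusted p = 0.691). Kif1c also lost its call without WT replicate 1 (-0.45), WT replicate 2 (-0.59), TKS5 KO replicate 1 (-0.53) or TKS5 KO replicate 2 (-0.43). The number of kinesins called was 3 in place of 5 with the length correction, without WT replicate 2 and without TKS5 KO replicate 2.

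**Figure D5:**
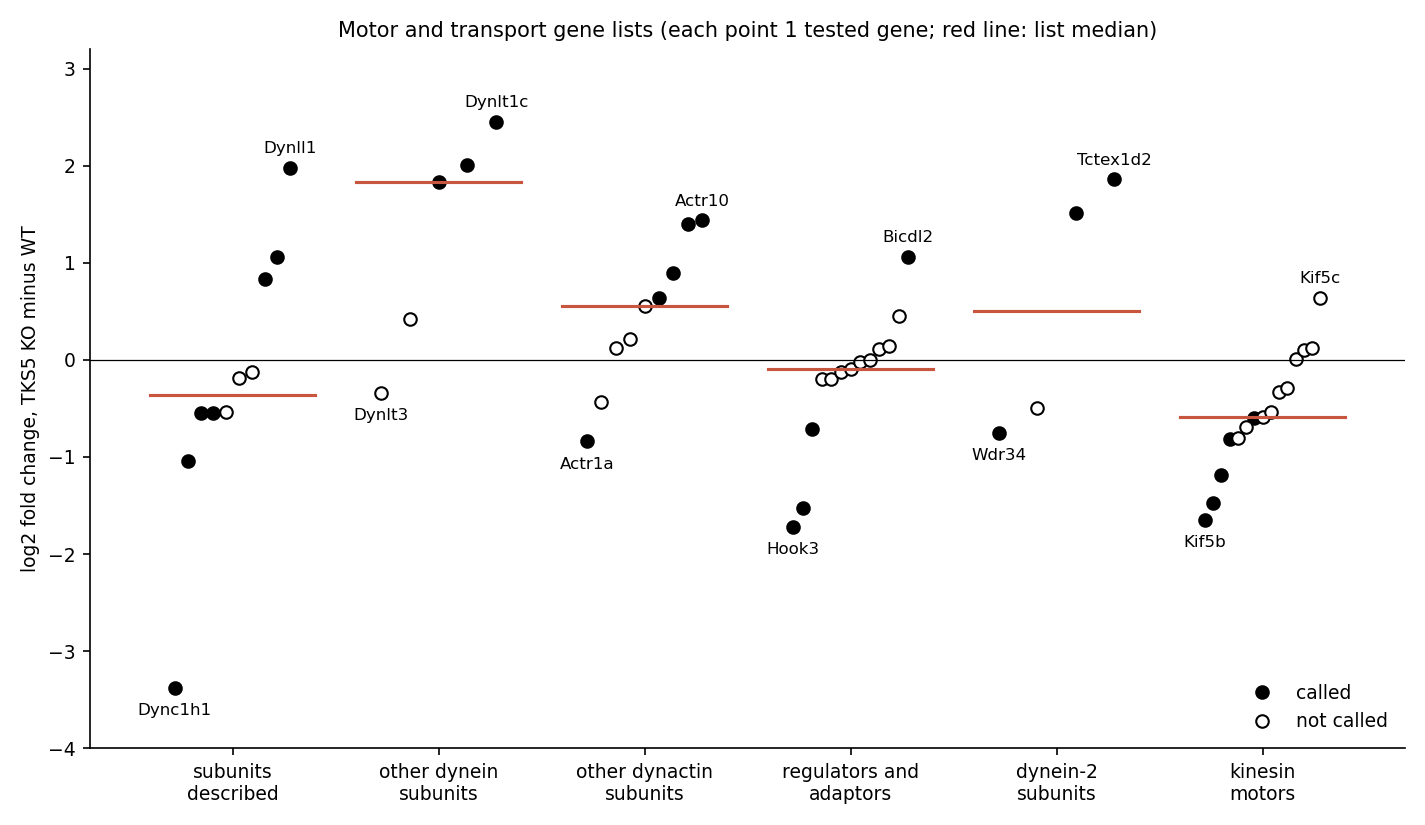
Log2 fold change (vertical axis, TKS5 KO minus WT) of every tested gene in 6 lists, with filled points for genes called, open points for genes not called and a red line at the list median. The 10 subunits spread from -3.38 (Dync1h1) to 1.98 (Dynll1), the other dynactin subunits have a median of 0.55, and the kinesins one of -0.59.

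The patterns of the 2 extreme subunits over the 6 libraries were shared by many genes. Among 3252 other tested genes with a mean of at least 50 CPM, the log2 CPM most like those of Dync1h1 were those of Hpcal1 (Pearson's r 0.9999), Gaa (0.9982) and Bmp1 (0.9981), and 266 genes had an r above 0.95. Their size of change differed, with log2 fold changes of -0.58, -1.76 and -1.42. Most like Dynll1 were Pigx (0.9983), Rpl27a (0.9983) and Nedd8 (0.9982), with 452 genes above 0.95 and log2 fold changes of 1.64, 1.56 and 1.44. With 6 libraries in 2 groups, such an r mostly restates the difference between the groups, and it is given as a description.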

How the data were processed

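Quant-seq libraries of LFs, 3 per group, were used. Per the study's methods, Trim Galore, HISAT2 and Bowtie2 were used for trimming and for alignment to GRCm38, and metaseqR2 for counting over 3′ UTR regions, and the authors deposited the counts per gene. The authors also deposited counts normalized with EDASeq, which were used here as a score in 1 alternative.

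In R 4.3.3, genes kept by filterByExpr (10346) were TMM-scaled and compared by the robust quasi-likelihood F test of edgeR 4.0.16, with Benjamini-Hochberg adjustment. CPM used TMM-scaled totals, and log2 CPM a prior count of 2. Library depth limits precision for genes with few counts, such as Dctn1. Lengths came from GENCODE M21, which matched 55104 of 55364 genes. The loess span of the length correction was 0.5.

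Alternatives used DESeq2 1.42.0, limma 3.58.1 (voom, or log2 of the score + 1), RLE factors, library totals, other filters, the corrections, the replicate block and each library left out. The members and lists were chosen with earlier results of these data known. Genes named were the 10 subunits, Sh3pxd2a, cell type markers, cell cycle genes, of each list the 3 called genes with the smallest adjusted p, those whose call the length correction changed, and the 3 most like Dync1h1 and Dynll1. Actr1a, Capza1, Dynlt1a, Dynlt3, Kif3a, Kif3b, Kif5c, Kif13a, Kif13b, Kif16b, Klc4, Pafah1b1, Il11ra1, Grb2 and the pseudogenes were named after their values were seen.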

Additional observations from a re-analysis of the deposited data

How the results depend on the processing

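Dync1h1, Dync1li2 and Dynll1 kept direction and call under all 18 alternatives (-3.89 to -2.39, -1.56 to -0.73 and 1.56 to 2.12 on the log2 scale). Over the 10 subunits, 154 of 179 alternative values kept both, 21 lost a call, 3 gained one and 1 reversed, which was Dctn1 with the length and GC correction (0.04). Scaling by library totals put the median of all tested genes at -0.47, with 1362 genes called higher and 3944 lower in place of 2356 and 2286. With it the median of the subunits was -0.77, Dync1li1 and Dynll2 were called lower, Dctn3 was not called, and Sh3pxd2a reversed to -0.13.

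The length correction, with and without the replicate block, called 4 of the subunits in place of 7 and 3 kinesins in place of 5. The length and GC correction called 2 kinesins and the mRNA length correction, chosen after seeing the data, 3. Long minus short subunits was -1.14 with the length correction, -1.22 with length and GC, -1.17 with the replicate block and length, -1.09 with mRNA length, -1.19 without Dync1h1 and 0.53 ranked by 3′ UTR length, in place of -1.76. Sh3pxd2a was called higher with the length correction (1.01, also with the replicate block), with length and GC (1.15) and with mRNA length (1.02). At least 10 counts in every library left 11 of the other subunits, of which 5 were called in place of 8, and took out Dctn1. Other causes were not tested.

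With 1 library left out, genes called ranged from 3853 to 4595, subunits called from 5 to 7, other subunits from 7 to 8, regulators from 3 to 4, kinesins from 3 to 6, the subunits' median from -0.40 to -0.15, long minus short from -1.91 to -1.61 and Sh3pxd2a from 0.22 to 0.41. Same-numbered libraries shared only a number (correlations of deviations -0.00101, -0.0637 and 0.082). The replicate block gave 4668 genes called, a subunit median of -0.38 and -1.79 for long minus short, and changed no call among the subunits.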
